A study of Mus musculus with 8 samples.

Results

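The genes described here were 10 enzymes of the urea cycle and of amino acid catabolism, Nags, Cps1, Otc, Ass1, Asl, Arg1, Tat, Sds, Got1 and Gpt, chosen by gene symbol from the 19348 genes of the deposited count table. All 10 were found, each under 1 NCBI Gene number, and all 10 passed the filter on low counts in both tissues. RNA-seq had been carried out on liver and on epididymal white adipose tissue (eWAT) of male C57BL/6 mice aged 12 weeks that were fasted for 16 h. Of the 8 libraries, 2 per tissue were labelled Crtc1-/-, from mice in which CRISPR/Cas9 was used to delete part of Crtc1, a coactivator of the transcription factor CREB, in every tissue. The other 2 per tissue were labelled Crtc1+/+ and were from wild-type mice without another allele or agent. The methods name the same mice as the source of both tissues, so that liver and eWAT libraries share mice, while the labels did not say which liver library and which eWAT library came from the same mouse.

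The urea cycle turns the ammonia released by amino acid breakdown into urea, and in mammals the complete cycle operates in hepatocytes. Nags makes N-acetylglutamate, the activator that Cps1 needs, and Cps1 and Otc carry out the mitochondrial steps that yield citrulline. Ass1, Asl and Arg1 complete the cycle in the cytosol. Tat degrades tyrosine, Sds converts serine to pyruvate, and Got1 and Gpt are the cytosolic aspartate and alanine aminotransferases. In fasting, these enzymes let the liver use amino acid carbon for glucose, and Tat is a classical target of glucocorticoids and glucagon.

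The libraries held 16560070 to 19721464 counts. Crtc1 itself was not lower in the libraries labelled Crtc1-/-, with 22.1 and 18.0 CPM (library-scaled counts, here and below adjusted by TMM, the trimmed mean of M values, within the tissue) in liver against 11.7 and 9.86 with the other label. In eWAT Crtc1 had 58.5 and 33.6 CPM against 32.5 and 33.7. Reads summed over the gene do not show which exons they came from, so the groups are named here by their labels. The libraries differed in markers of other cell types, with no cause tested. The 17 epididymis markers took 7.85% and 9.22% of the counts in the libraries labelled Crtc1+/+ and 0.00239% and 0.00123% in those labelled Crtc1-/-, where 7 and 5 of the 17 were at 0. The 10 adipocyte markers took 0.222% and 0.353% with the label Crtc1+/+, and 4.12% and 1.96% with the label Crtc1-/-. The 8 macrophage markers were also higher with the label Crtc1-/- in eWAT, at 994 and 476 CPM against 236 and 123 CPM (summed and scaled by library total alone), with 1 of the 8 at 0 in 1 library. Of the 7 that were tested 3 passed an adjusted p of 0.05 in edgeR, each higher. In liver the epididymis markers summed to 82.1 and 11.7 CPM with the label Crtc1-/- and 2.18 and 1.89 CPM with the label Crtc1+/+. The 13 hepatocyte markers, none of which was at 0 in any library, took 19.1% to 23.0% of the counts in liver. In eWAT their share was 0.619% and 0.0728% in replicates 1 and 2 labelled Crtc1+/+, 0.108% in replicate 1 labelled Crtc1-/- and 10.05% in replicate 2 labelled Crtc1-/-. That last library therefore stood apart from the other 3 in hepatocyte RNA, and the main eWAT results below are also given without it.

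In liver the 10 genes together made up 1.25% to 1.63% of all counts. Compared per transcript length in FPKM (fragments adjusted for the length of the transcript and the size of the library), Ass1 was the most abundant, at 4203 ± 408 FPKM with the label Crtc1+/+ and 4388 ± 616 FPKM with the label Crtc1-/- (SD, n = 2 each). It ranked between 21 and 25 among all genes of each liver library. In the libraries labelled Crtc1+/+ the order went on with Arg1 at 1044 ± 248, Asl at 951.3 ± 26.3 and Tat at 884.7 ± 427 FPKM, neighbours whose ranges overlapped. Cps1 followed at 438.4 ± 123 FPKM, separate from the genes on either side of it. Sds at 216.9 ± 58.3, Gpt at 198.0 ± 13.8 and Got1 at 174.1 ± 27.1 FPKM overlapped in turn. Nags at 63.1 ± 14.4 and Otc at 56.1 ± 24.3 FPKM were the least abundant and overlapped each other. Between libraries of the same label, the higher liver value was at most 2.16 times the lower, for Got1 with the label Crtc1-/-.

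**Figure D1:**
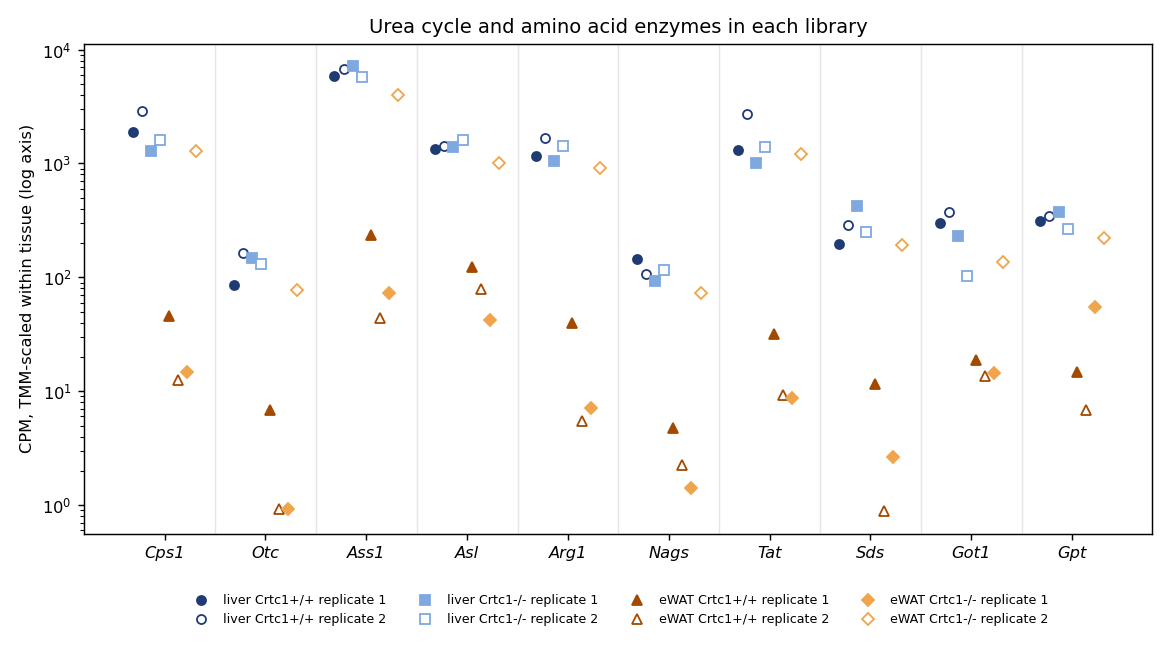
Level of each gene in the 8 libraries, in CPM scaled by TMM within each tissue, on a log axis; circles and squares are liver, triangles and diamonds eWAT, filled symbols replicate 1 and open symbols replicate 2. In eWAT the open diamonds (labelled Crtc1-/- replicate 2) lie near the liver values for every gene, and the other 3 libraries lie below them.

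In eWAT the genes were higher in 1 of the 2 libraries labelled Crtc1-/-. Cps1, the entry enzyme of the cycle, had 14.8 and 1277 CPM in replicates 1 and 2 with the label Crtc1-/- and 45.4 and 12.4 CPM in replicates 1 and 2 with the label Crtc1+/+. Arg1, which releases urea, had 7.08 and 916 CPM against 39.8 and 5.44 CPM. For both genes replicate 1 labelled Crtc1-/- lay inside the range of the other label, and the groups overlapped.

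The remaining cycle enzymes were likewise high in replicate 2 labelled Crtc1-/-. Ass1, which joins citrulline and aspartate, had 73.1 and 4025 CPM with the label Crtc1-/- and 234 and 43.9 CPM with the label Crtc1+/+. Otc had 0.93 and 78.1 CPM against 6.79 and 0.93 CPM. Replicate 1 labelled Crtc1-/- thus held Otc at 17 counts, close to the 18 counts of replicate 2 labelled Crtc1+/+. Asl, the lyase that splits argininosuccinate, had 42.6 and 998 CPM against 122 and 78.4 CPM. Nags had 1.43 and 73.1 CPM against 4.76 and 2.23 CPM. For Asl and Nags, the first library labelled Crtc1-/- was below both libraries of the other label and the second was above both.

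Of the amino acid enzymes, Tat had 8.68 and 1218 CPM with the label Crtc1-/- and 31.9 and 9.33 CPM with the label Crtc1+/+. Sds had 2.64 and 192 CPM against 11.5 and 0.88 CPM. Got1 varied less, with 14.4 and 135 CPM against 18.7 and 13.7 CPM. Gpt was the only 1 of the 10 whose groups did not overlap, at 54.4 and 220 CPM with the label Crtc1-/- and 14.9 and 6.79 CPM with the label Crtc1+/+. Over all genes tested in eWAT the groups did not overlap for 66.6%, and for 31.3% with the label Crtc1-/- higher.

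The fitted log2 fold changes (label Crtc1-/- over label Crtc1+/+, edgeR's quasi-likelihood test on 2 against 2 libraries) were above 0 for 10 of 10 genes, from 2.20 for Got1 to 4.90 for Tat. Their median was 3.77, beside -0.05 over all genes tested and 4.13 over the 13 hepatocyte markers. None of the 10 passed an adjusted p of 0.05, where 12.2% of the 15391 genes tested passed, and 1 had an unadjusted p under 0.05, where 33.3% did. DESeq2 called 2, Nags (adjusted p = 0.045) and Gpt (adjusted p = 4.0e-05), where it called 30% of all genes tested. For Tat the 95% interval ran from -0.69 to 10.5 and for Cps1 from -0.69 to 9.65. Gpt had the narrowest interval, 1.51 to 5.82 around 3.66 (SE 0.84, adjusted p = 0.0545). It was the only gene of the 10 past the study's own threshold, which asks for a change of more than 1 on the log2 scale at an unadjusted p below 0.01 and was passed by 15.9% of all genes tested.

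Without replicate 2 labelled Crtc1-/-, 9 of the 10 log2 fold changes turned negative, from -0.19 for Got1 to -2.02 for Otc, and the median was -1.22, beside -1.49 over the hepatocyte markers. Gpt stayed above 0 in that fit, at 2.32 with an adjusted p of 0.0486, and was the 1 gene of the 10 that passed, where 12.3% of all genes did. Without replicate 1 labelled Crtc1-/- instead, 10 of 10 genes passed an adjusted p of 0.05, each higher, with a median of 4.63, where 9.84% of all genes passed and were higher. In both of these fits the lone library of the label was assumed to vary like the other group.

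**Figure D2:**
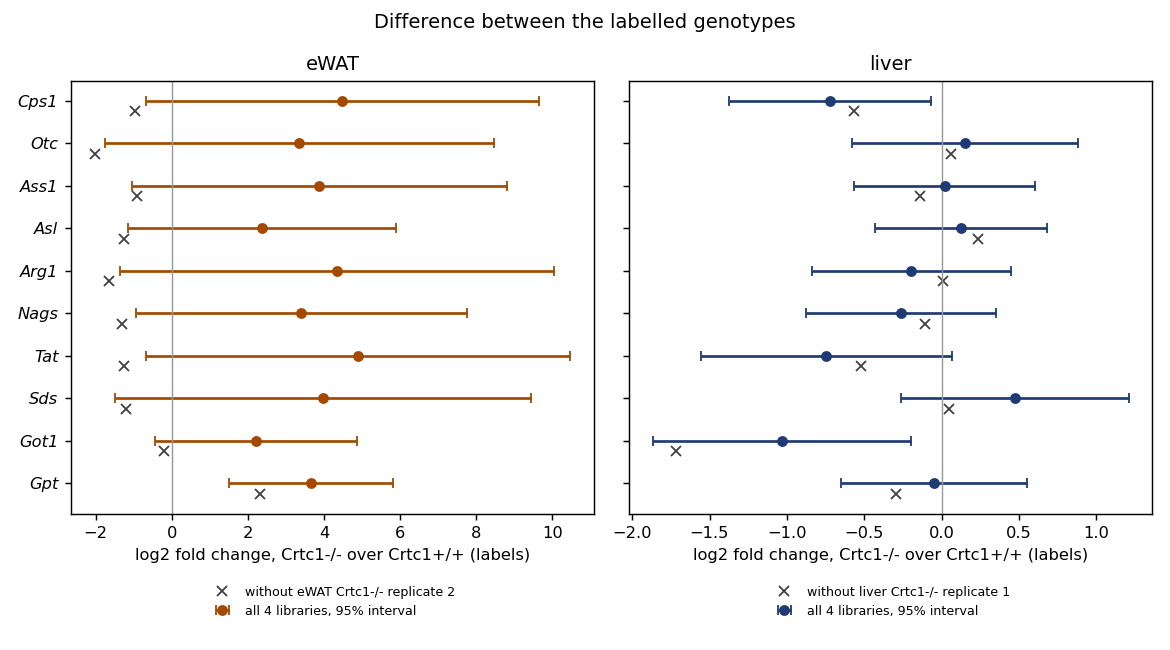
Log2 fold change of each gene between the labels Crtc1-/- and Crtc1+/+ in eWAT and in liver (edgeR; points and bars, estimate and 95% interval from 4 libraries; crosses, the estimate without 1 library). In eWAT 9 of 10 crosses lie below 0 while every point lies above 0; in liver the points lie between -1.03 (Got1) and 0.47 (Sds).

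The levels in replicate 2 labelled Crtc1-/- were set beside the hepatocyte markers, gene by gene. Scaled by library total, its 10 genes had 45.0% (Otc) to 81.2% (Tat) of the mean of the liver libraries of the same label, and the summed hepatocyte markers had 47.7%. Per count of hepatocyte marker, the genes in this library lay between 0.869 and 1.25 times the liver mean, and 9 of 10 lay within the range of the 4 liver libraries. The exception was Asl, at 1.14 times the liver mean and 8.13 counts per 1000 hepatocyte marker counts, against 6.92 to 7.33 in liver. Its levels were 3.37 (Gpt) to 117 (Tat) times those of replicate 1 of the same label, and its summed hepatocyte markers 93.3 times. The ratios describe single libraries and were not tested, and fewer cells of a type and less RNA per cell cannot be told apart in bulk tissue.

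In the other 3 eWAT libraries the genes separated by their ratio to the hepatocyte markers. Arg1 stayed at 0.994, 1.12 and 1.26 times the liver mean, in replicate 1 labelled Crtc1-/- and replicates 1 and 2 labelled Crtc1+/+. Tat was at 1.001, 0.738 and 1.77 times, and Cps1 at 1.42, 0.875 and 1.97 times. These 3 genes thus remained within 2-fold of the liver ratio in all 4 eWAT libraries, as did Sds, with 0.915 to 1.66 times. Otc, at up to 2.14 times, and Ass1, at up to 2.10 times, passed that range and lay above every liver library in these 3 libraries. In the same order of libraries, 7, 6 and 9 of the 10 genes lay above the highest liver library.

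Asl, Got1, Gpt and Nags reached the highest ratios to the hepatocyte markers. Asl was at 5.46, 3.14 and 16.6 times the liver mean in the same order of libraries, and Got1, which all cells with a malate-aspartate shuttle use, at 10.4, 2.70 and 16.3 times. Gpt was at 30.7 times in replicate 1 labelled Crtc1-/-, and at 1.68 and 6.31 times in those labelled Crtc1+/+. Nags was at 2.28, 1.53 and 5.86 times, from only 26, 99 and 43 counts. Of the 10 genes, Gpt thus had the highest ratio in replicate 1 labelled Crtc1-/-, and Asl and Got1 in replicate 2 labelled Crtc1+/+.

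**Figure D3:**
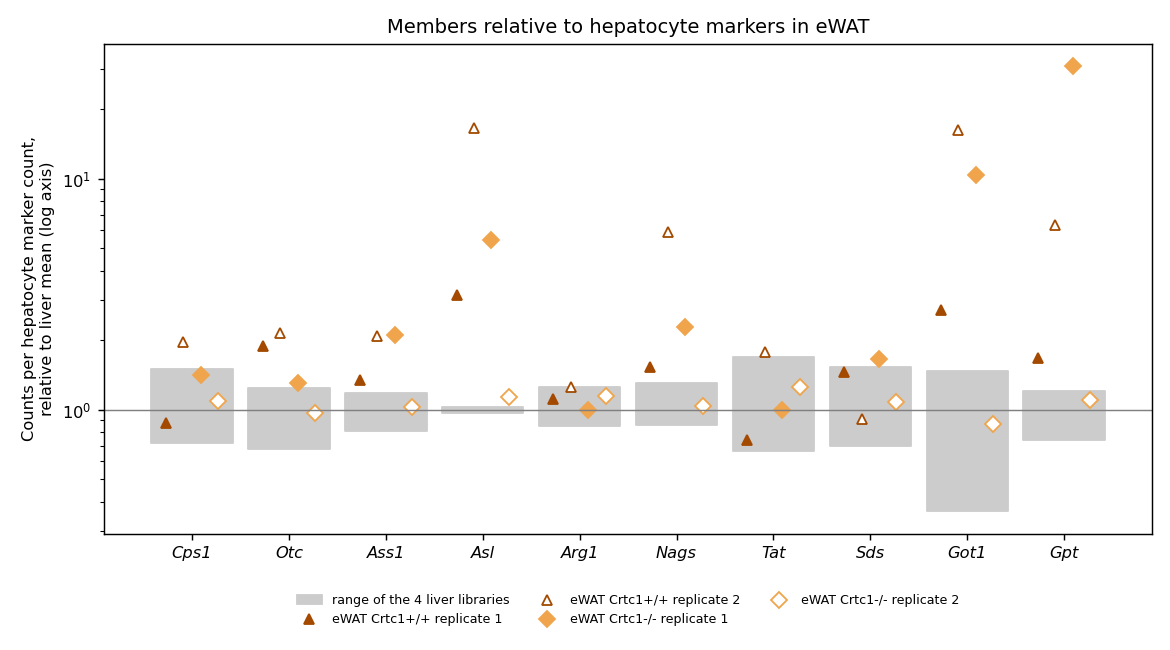
Counts of each gene per count of the 13 hepatocyte markers in the 4 eWAT libraries, divided by the mean of the 4 liver libraries, on a log axis; grey boxes are the range of the liver libraries. Open diamonds (labelled Crtc1-/- replicate 2) lie between 0.869 and 1.25, and Gpt in replicate 1 labelled Crtc1-/- (filled diamond) is the highest point at 30.7.

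The Gpt difference was also set beside the adipocyte markers, which were higher with the label Crtc1-/- in 10 of 10 genes (median log2 fold change 3.92, 8 with an adjusted p under 0.05). Their median was 4.24 without replicate 2 labelled Crtc1-/-, and 9 passed. Per 1000 adipocyte marker counts Gpt had 1.301 and 9.21 counts with the label Crtc1-/- and 7.61 and 2.11 counts with the label Crtc1+/+. On that scale the groups overlapped, and replicate 1 labelled Crtc1-/- was the lowest of the 4. The part of the differing adipocyte, macrophage, epididymis and hepatocyte RNA in the Gpt difference was not tested.

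Between the tissues, the genes were higher in liver. With the label Crtc1+/+, 10 of 10 passed an adjusted p of 0.05 with liver higher, as did 19.8% of the 15587 genes tested (edgeR, 8 libraries in 1 fit). The study's threshold was passed by 6 of the 10, and by 14.2% of all genes with liver higher. The fold ranged from 31.8-fold for Asl (log2 4.99, SE 1.37) to 225-fold for Tat (log2 7.81, SE 2.19), with a median log2 difference of 6.43. Leaving out either eWAT library of this label reduced the calls to 2 (without replicate 1, where 12.4% of all genes passed with liver higher) or 1 (without replicate 2, where 9% did). Leaving out a liver library of this label reduced them to 2 (without replicate 1, where 9.66% did) or 3 (without replicate 2, where 10.9% did). These tests took the 8 libraries as independent, although tissues of the same mice were used. With the liver and eWAT library of the same label and number taken as 1 mouse, a replicate block within each label added after seeing the data, 7 of the 10 passed with the label Crtc1+/+, again beside 19.8% of all genes.

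With the label Crtc1-/-, the same contrast gave 4.48-fold (Tat) to 8.10-fold (Otc), with a median log2 difference of 2.65. Gpt alone passed, with a log2 difference of 2.45 (SE 0.75, adjusted p = 0.0496), against 8.89% of all genes with liver higher, and none of the 10 passed the study's threshold, against 6.18%. Without eWAT replicate 2 labelled Crtc1-/-, 10 of 10 passed, where 15.2% of all genes passed with liver higher. Without any 1 other library of the fit none of the 10 passed, where 0.662% to 5.48% of all genes did. With the replicate block within each label none passed, where 9.89% of all genes did, and the median log2 difference was 4.74. The difference between the tissues in the effect of the label (an interaction term) was above 0 for 10 of 10 genes, with a median of 3.68, and none passed an adjusted p of 0.05 in edgeR, against 6.94% of all genes. In this term 2 genes had an unadjusted p under 0.05, Gpt (3.69, SE 1.04, adjusted p = 0.079) and Got1 (3.23, SE 1.36, adjusted p = 0.183), while 26.9% of all genes did. DESeq2 called 3 of the 10, Cps1, Got1 and Gpt, and 13.2% of all genes. The study's threshold was passed by 1 of the 10 and by 12.2% of all genes. Without eWAT replicate 1 labelled Crtc1-/-, 9 passed in edgeR, where 13.9% of all genes did. Without eWAT replicate 2 labelled Crtc1-/- instead, the term was below 0 for 8 of the 10 genes and above 0 for Got1 and Gpt, with a median of -1.04, and none passed, where 8.37% of all genes did. Gpt was at 2.33 in that fit (SE 0.68, adjusted p = 0.076). The replicate block within each label gave a median of 2.42, and none passed, where 5.94% of all genes did. The interaction uses the same eWAT libraries as the comparison within eWAT and is not independent of it.

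In liver the labels differed little. Of the 10 genes, 4 had a log2 fold change above 0 and 6 below, with a median of -0.12 beside 0.0039 over all genes tested, and with upper-quartile or library-size scaling 5 lay above 0 and 5 below. None passed an adjusted p of 0.05 in edgeR or DESeq2, where 0.0854% and 2.66% of the 11707 genes tested did. An unadjusted p under 0.05 was found for 2, Cps1 and Got1, against 17.3% of all genes. The groups did not overlap for these 2, with the label Crtc1-/- lower, as for 26.4% of all genes (52.1% in either direction). The study's threshold was passed by none of the 10 and by 4.27% of all genes.

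Got1 in liver had 229 and 102 CPM with the label Crtc1-/- and 299 and 378 CPM with the label Crtc1+/+. Its log2 fold change was -1.03 (SE 0.37, 95% interval -1.87 to -0.20, adjusted p = 0.226 by edgeR's quasi-likelihood test). The lowest value was that of replicate 2 labelled Crtc1-/-, and the call rested on which library was kept. Without replicate 1 of that label the log2 fold change was -1.72 with an adjusted p of 3.3e-05, in a fit where 12.5% of all genes passed, and without replicate 2 it was -0.57 with an adjusted p of 0.40.

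Cps1 had 1298 and 1605 CPM with the label Crtc1-/- and 1897 and 2887 CPM with the label Crtc1+/+. Its log2 fold change was -0.72 (SE 0.29, 95% interval -1.37 to -0.07, adjusted p = 0.260). Both libraries labelled Crtc1-/- were below both of the other label, and the 2 libraries labelled Crtc1+/+ themselves differed 1.5-fold. Tat had 1002 and 1398 CPM against 1314 and 2708 CPM, with a log2 fold change of -0.74 (SE 0.36, adjusted p = 0.316). Its groups overlapped, and replicate 2 labelled Crtc1+/+ was the high library. Without that library Tat had a log2 fold change of -0.14 and Cps1 of -0.40.

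The other 7 genes lay between -0.26 (Nags) and 0.47 (Sds) on the log2 scale, and their groups overlapped. Sds had 425 and 250 CPM with the label Crtc1-/- and 196 and 290 CPM with the label Crtc1+/+, and its 95% interval ran from -0.26 to 1.21. Otc had 148 and 131 CPM against 86.4 and 165 CPM. Ass1 had 7129 and 5730 CPM against 5872 and 6809 CPM, Asl 1397 and 1615 CPM against 1342 and 1416 CPM, and Arg1 1052 and 1411 CPM against 1167 and 1655 CPM. The abundant cytosolic enzymes of the cycle thus overlapped between the labels, with 95% intervals of -0.57 to 0.61 for Ass1, -0.43 to 0.68 for Asl and -0.84 to 0.45 for Arg1. Nags had 93.7 and 116 CPM against 146 and 106 CPM. Gpt, which stood out in eWAT, had 371 and 268 CPM against 312 and 349 CPM in liver, with an interval of -0.65 to 0.55.

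**Figure D4:**
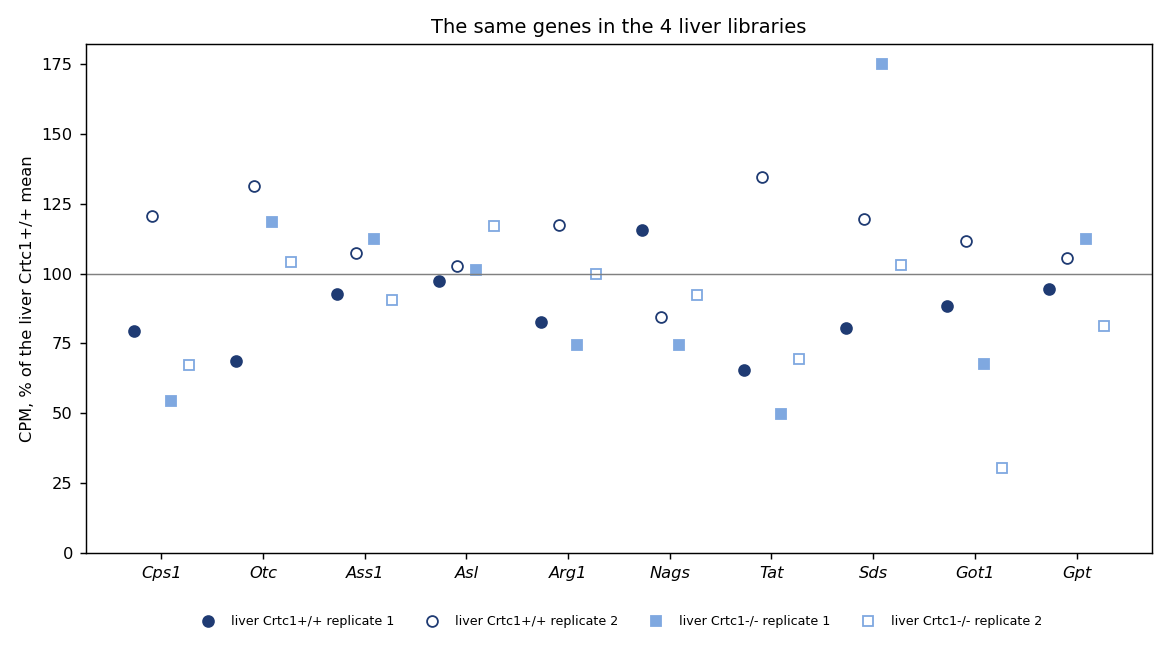
Level of each gene in the 4 liver libraries as a percent of the mean of the 2 libraries labelled Crtc1+/+ (CPM scaled by TMM). Only for Cps1 and Got1 do both squares (labelled Crtc1-/-) lie below both circles (labelled Crtc1+/+).

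The cycle enzymes are most abundant in hepatocytes around the portal vein, while glutamine synthetase (Glul) marks those around the central vein. The 7 periportal markers summed to 3592 and 1753 CPM with the label Crtc1-/- and 2389 and 3191 CPM with the label Crtc1+/+ (in liver, scaled by library total alone). The 8 pericentral markers summed to 12286 and 10302 CPM against 12432 and 15190 CPM. Replicate 2 labelled Crtc1-/-, in which Got1 was lowest, was also the lowest of the 4 on both sums. Cps1 was lowest in replicate 1 of that label, which had the highest periportal sum. The part of zonation in the Got1 and Cps1 values was not tested.

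Because Crtc1 acts through CREB, which binds the cAMP response element TGACGTCA or its shorter core TGACG, the 250 bases upstream of the transcription start were read for the 5 genes with an entry in RefSeq's promoter table (GRCm38.p6), Ass1, Tat, Nags, Got1 and Otc. On either strand TGACGTCA was in 0 of 5, beside 1.55% of 32851 promoters of the same length, and TGACG in 0 of 5, beside 17.8%. The TATA box letters TATAAA were in 0 of 5, beside 12.4%. The CCAAT box, counted as CCAAT or its reverse complement, was in 2 of 5, beside 33.8% of all promoters. The 2 were Got1, with 5 boxes, and Tat, with 3, and Ass1, Nags and Otc had 0. At least 5 boxes were found in 0.213% of all promoters and at least 3 in 2.79%. The windows are shown 5′ to 3′ on the strand of the gene with the boxes in capitals, Got1 at chr19:43524606-43524855 (minus strand) and Tat at chr8:109990186-109990435 (plus strand).
Got1: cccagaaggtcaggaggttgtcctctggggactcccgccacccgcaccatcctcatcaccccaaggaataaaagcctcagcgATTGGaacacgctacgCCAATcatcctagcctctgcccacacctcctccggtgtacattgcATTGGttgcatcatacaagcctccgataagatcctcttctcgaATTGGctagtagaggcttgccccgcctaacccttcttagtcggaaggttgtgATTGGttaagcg
Tat: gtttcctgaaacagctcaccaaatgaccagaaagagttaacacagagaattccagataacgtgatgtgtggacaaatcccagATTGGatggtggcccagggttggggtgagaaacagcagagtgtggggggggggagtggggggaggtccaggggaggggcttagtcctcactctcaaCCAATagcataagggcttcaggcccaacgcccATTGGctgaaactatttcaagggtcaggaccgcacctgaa

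These matches describe letters in a window and not bound sites. The Tat window lies upstream of the annotated start that RefSeq's table uses, and inside the longer span of the gene (chromosome 8, 109986078 to 109999804) that includes another transcript. Got1 spans 43499752 to 43524605 on the minus strand of chromosome 19, so its window adjoins the gene. The Otc window (chromosome X, 10252055 to 10252304) ends inside the span of its gene, which starts at 10252230. Of the other members, Cps1 lies on chromosome 1 (67122426 to 67231267, 38 exons in its longest transcript) and is the longest of the 10, and Gpt on chromosome 15 (76696726 to 76699675) is the shortest.

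The wider pathway was described with 80 further genes in 3 lists, of which 76 were tested in each tissue. In eWAT 63 of the 76 had a log2 fold change above 0 and 13 below, with a median of 1.99. An adjusted p under 0.05 was reached by 5, each higher with the label Crtc1-/-, where 6.65% of all genes tested were called higher. Without replicate 2 labelled Crtc1-/- 20 of 77 tested lay above 0 and 57 below, with a median of -0.66. Among the urea cycle partners and ammonia-handling genes 0 of 16 tested were called (edgeR), beside 12.2% of all genes. Beside 33.3% of all genes, 2 of the 16 had an unadjusted p under 0.05. These were Sirt5, a mitochondrial deacylase that acts on Cps1 (log2 fold change 1.56, SE 0.50, adjusted p = 0.108), and Glud1, the glutamate dehydrogenase (1.31, SE 0.49, adjusted p = 0.143). They were at 1.47 and 0.51 without replicate 2 labelled Crtc1-/-.

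Among other enzymes of amino acid catabolism 3 of 48 were called higher (edgeR), a share near the 6.65% of all genes tested. Gstz1 and Fah catalyse the last steps of tyrosine breakdown downstream of Tat, and Csad is the decarboxylase of taurine synthesis. Gstz1 had 520 and 670 CPM with the label Crtc1-/- and 89.0 and 77.9 CPM with the label Crtc1+/+ (log2 fold change 2.83, SE 0.35, adjusted p = 0.0195). Fah had 325 and 739 CPM against 99.3 and 73.3 CPM (2.62, SE 0.53, adjusted p = 0.0418). Csad had 164 and 261 CPM against 54.0 and 65.9 CPM (1.82, SE 0.36, adjusted p = 0.0403). For these 3 genes, as for Gpt, both libraries labelled Crtc1-/- were above both of the other label. Without replicate 2 labelled Crtc1-/- the log2 fold changes were 2.61 for Gstz1, 1.89 for Fah and 1.41 for Csad, and Csad no longer passed (adjusted p = 0.0545).

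Among the 13 regulators 2 of 12 tested, Cebpa and Foxo1, were called higher (edgeR), beside 6.65% of all genes tested. The other 10 had a log2 fold change above 0 without passing. Cebpa, a transcription factor of hepatocytes and adipocytes, had 852 and 750 CPM against 92.2 and 95.2 CPM (log2 fold change 3.10, SE 0.35, adjusted p = 0.0178). Foxo1, a mediator of the fasting response, had 98.9 and 120 CPM against 34.7 and 44.6 CPM (1.46, SE 0.29, adjusted p = 0.0419). Without replicate 2 labelled Crtc1-/- Cebpa was at 3.15 (adjusted p = 0.0056) and Foxo1 at 1.28 (adjusted p = 0.088). All 5 genes were higher with the label Crtc1-/-, as were the adipocyte and macrophage marker sums. From replicate 1 to replicate 2 of that label both sums fell, as did Cebpa. Gstz1, Fah, Csad and Foxo1 rose instead, as did the hepatocyte markers. The part of these cell types was not tested.

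In the library labelled Crtc1-/- replicate 2, 62 of the 76 genes over 3 counts in liver lay within 2-fold of the liver ratio to hepatocyte markers, against 13 in replicate 1 of that label and 25 and 13 in those labelled Crtc1+/+. Gstz1, at 1.81 times the liver ratio there, was at 157 times in replicate 1 labelled Crtc1-/-.

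**Figure D5:**
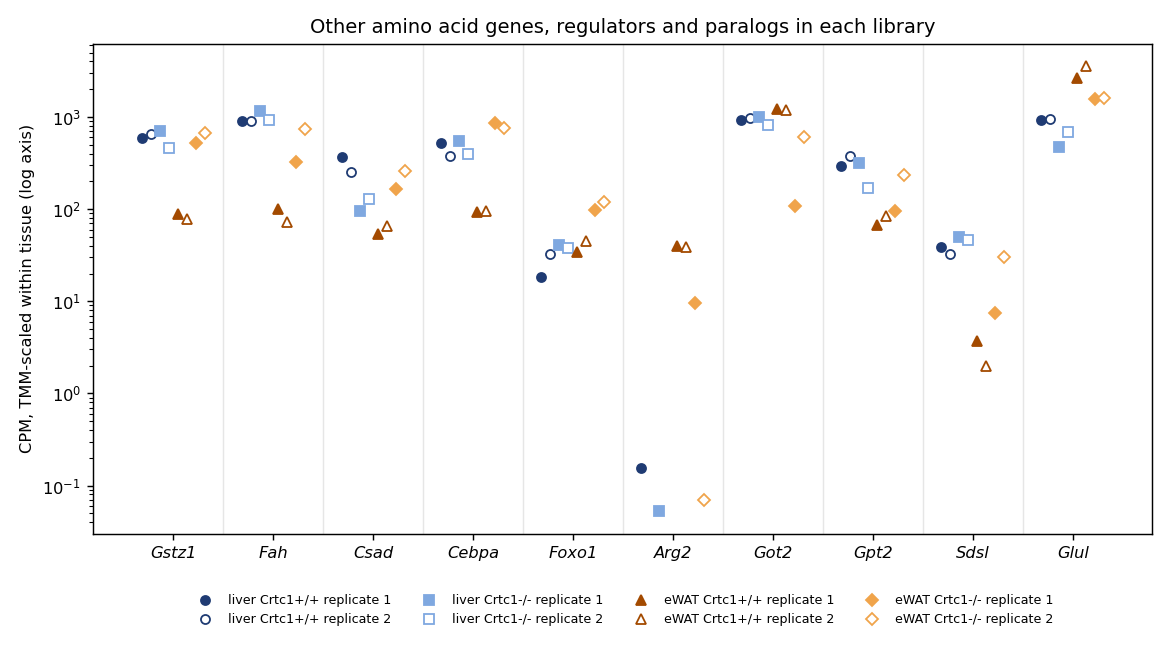
Level of 10 related genes in the 8 libraries, in CPM scaled by TMM within each tissue, on a log axis, with symbols as for the 10 enzymes; 2 liver libraries with 0 counts of Arg2 are not drawn. For Gstz1, Fah, Csad, Cebpa and Foxo1 both diamonds (eWAT labelled Crtc1-/-) lie above both triangles (eWAT labelled Crtc1+/+), and for Arg2, Got2 and Glul both lie below.

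The paralogs of 4 of the enzymes had different levels in eWAT. Arg2, the mitochondrial arginase outside the liver, had 39.7 and 38.6 CPM with the label Crtc1+/+ and 9.61 and 0.069 CPM with the label Crtc1-/-, where replicate 2 held 1 count. In liver Arg2 had 3 counts or fewer in each library, while Arg1 had 20088 or more. Got2, the mitochondrial aspartate aminotransferase, had 1206 and 1180 CPM with the label Crtc1+/+ and 109 and 611 CPM with the label Crtc1-/-. Both genes were thus lower with the label Crtc1-/- in both libraries, without passing in edgeR (adjusted p = 0.248 and 0.221). The epididymis markers were also lower with that label, and their part was not tested. Without replicate 2 labelled Crtc1-/- both passed (log2 fold changes of -2.06 for Arg2 and -3.48 for Got2, adjusted p = 0.042 and 0.0064). Gpt2 had 95.9 and 237 CPM against 66.8 and 84.2 CPM, and Sdsl 7.52 and 30.5 CPM against 3.66 and 1.97 CPM (adjusted p = 0.184 and 0.093). For these 2 the groups did not overlap, as for Gpt, and without replicate 2 labelled Crtc1-/- their log2 fold changes were 0.31 for Gpt2 and 1.40 for Sdsl.

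In liver 0 of the 76 further genes passed an adjusted p of 0.05 in edgeR, and 13 had an unadjusted p under 0.05, a share near the 17.3% of all genes. DESeq2 called 2, Csad and Gldc, likewise near its share of 2.66% over all genes. Csad, which was higher with the label Crtc1-/- in eWAT, had 94.4 and 129 CPM there with that label, against 371 and 252 CPM (log2 fold change -1.48, SE 0.30, adjusted p = 0.115 in edgeR). Gldc, of the glycine cleavage system, had 102 and 70.5 CPM against 163 and 220 CPM (-1.15, SE 0.29, adjusted p = 0.143). For both genes the groups did not overlap. Glud1 (-0.71, SE 0.26) and Glul (-0.69, SE 0.28) had the lowest p of the urea cycle partners, and Nr3c1, the glucocorticoid receptor (0.81, SE 0.27), and Creb1 (0.80, SE 0.37) of the regulators, with adjusted p from 0.212 to 0.302.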

How the data were processed

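RNA-seq counts and FPKM of 8 libraries were used, 2 in each of 4 groups taken from the sample labels, and every library was kept. The authors deposited estimated counts per gene, not normalized, and FPKM, scaled by transcript length and library total. The submitters' processing notes name HISAT, Bowtie2 and GRCm38.p6. The counting tool and annotation are not given in the sources used here, and 5.44% to 9.98% of the values per library were not whole, as where reads are shared between genes. All values of the 10 enzymes were whole.

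Counts were rounded, filtered by filterByExpr, scaled by TMM within each tissue and tested across all genes with the quasi-likelihood test of edgeR 4.0.16 in R 4.3.3, p-values being adjusted by Benjamini-Hochberg. Tissue contrasts and the interaction used all 8 libraries and took them as independent, although the methods name pieces of both tissues from 2 mice of each label. SE was the log2 fold change over the square root of F. Mice are separate within a group according to the methods, and 2 against 2 cannot give an exact p under 0.333. At a floor of 3 counts a library resolved 0.152 to 0.181 CPM. Counting error was largest for Otc and Sds, at 17 counts in 1 eWAT library each, and the spread between libraries of a group limited the comparisons.

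Alternatives were DESeq2 1.42.0, limma 3.58.1 on quantile-normalized log2(FPKM + 1) and log2(FPKM + 0.1), no filter, a filter on mean counts of 50 or more, scaling by upper quartile or library size, the replicate number as a block, each library left out, 1 fit of 8 libraries, and the study's threshold. A block for each pair of same-numbered libraries of a label was added after seeing the data. The code was tested on simulated data. The members, lists and tests were chosen with earlier results of these data known. From each list of further genes, those with an adjusted p under 0.05 were named (up to 4 by size), or the 2 of lowest p, and the paralogs Arg2, Got2, Gpt2 and Sdsl were named by rule. Positions and sequences were from RefSeq on GRCm38.p6, and figures were drawn with matplotlib 3.10.9.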

Additional observations from a re-analysis of the deposited data

How the results depend on the processing

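In eWAT, the direction of each of the 10 enzymes held under DESeq2, both limma fits, both filters and both other scalings. The count of enzymes passing was 2 with DESeq2 (30% of all genes) and 1 with library-size scaling (10.8%). It was also 1 with 8 libraries in 1 fit (24.8%) and 1 at the study's threshold (15.9%). Upper-quartile and library-size scaling moved the median of all genes from -0.05 to -0.25 and -0.35, and the enzymes lay between 1.98 and 4.65 and between 1.78 and 4.44. Calls over all genes in eWAT split into 1023 higher of 1875 with TMM, 744 of 1740 with upper-quartile and 587 of 1662 with library-size scaling. Leaving out 1 library gave a median of -1.22 to 5.58. The log2 fold changes were then -0.96 to 5.81 for Cps1, -2.02 to 5.5 for Otc, -0.91 to 5.65 for Ass1 and -1.25 to 3.33 for Asl. They were -1.65 to 6.51 for Arg1, -1.30 to 4.39 for Nags, -1.24 to 6.15 for Tat, -1.21 to 6.88 for Sds and -0.19 to 3.07 for Got1. The 9 genes were reversed without replicate 2 labelled Crtc1-/- and in no other setting. Of the 76 further genes in eWAT, 20 passed with DESeq2 (30% of all genes), 3 with limma on log2(FPKM + 0.1) (13.3%), 2 with upper-quartile scaling (11.3%), 3 with library-size scaling (10.8%), 8 with 8 libraries in 1 fit (24.8%), and 0 to 55 with 1 library left out (0% to 19%). Without either library labelled Crtc1+/+ 0 genes passed over the whole table.

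In liver, the median of the enzymes was -0.21 to 0.045 with 1 library left out. Asl turned to -0.13 under both limma fits, Gpt to 0.022 with a mean count of at least 50, 0.032 with upper-quartile and 0.0039 with library-size scaling, and Got2 to 0.016 and 0.027 under the first 2 of these. With 1 library left out Otc lay between -0.25 and 0.68, Ass1 between -0.14 and 0.16, Arg1 between -0.44 and 0.067, Gpt between -0.29 and 0.16, and Got2 between -0.20 and 0.076. Of the further genes 2 passed with DESeq2 (2.66% of all genes), 2 without a filter (1.89%), 2 at the study's threshold (4.27%) and 0 to 14 with 1 library left out (0.00817% to 12.5%).

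For the interaction 3 enzymes passed with DESeq2 (13.2% of all genes) and 1 at the study's threshold (12.2%). With 1 library left out the median of the term over the enzymes was -1.04 to 5.41. Between tissues with the label Crtc1+/+, 6 passed at the study's threshold (14.2% of all genes with liver higher). The median log2 difference was 5.81 to 8.35 with 1 library left out. With the label Crtc1-/-, 5 passed with DESeq2 (13.6% of all genes with liver higher) and 0 with each limma fit (11.3% and 9.06%). Library-size scaling gave 0 (0.674%), as did the study's threshold (6.18%). The median log2 difference was 1.72 to 7.95 with 1 library left out. Same-numbered libraries of the 2 labels deviated together with a correlation of 0.020 in eWAT and 0.074 in liver, and those of the 2 tissues with 0.036 for the label Crtc1-/- and 0.152 for the label Crtc1+/+, so that it is not shown that the numbers pair them. With the replicate block no gene of the whole table passed in eWAT, and so 0 of the further genes, and the eWAT median was 2.43. Between tissues with the label Crtc1-/- 0 enzymes passed with that block, where 11.8% of all genes passed with liver higher. With the replicate block within each label 0 passed, where 9.89% of all genes did. The cause of these changes was not tested, beyond the fewer libraries in a fit that leaves 1 out. The lowest count of an enzyme in a library was 17 (Otc and Sds in eWAT), and counting error is largest there.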
